A study of Bos taurus with 12 samples.

Results

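The solute carrier (SLC) genes of the bovine corpus luteum were examined before and during luteal regression brought on by prostaglandin F2α (PGF2α). Members were the genes whose symbol begins with SLC and a number and that reached at least 10 expected counts (rounded) in at least 4 of the 12 libraries. The 7 symbols that belong to glucose, fatty acid, cystine and iron handling were set aside (SLC2A1, SLC27A1, SLC27A3, SLC27A4, SLC7A11, SLC40A1 and SLC11A2). This left 348 of 355 solute carrier names, of which 235 passed the count minimum, out of 14481 genes that passed it among 27270 in the tables. The other 113 names were below it, 19 of them with no count in any library, and the highest group mean among them was 0.47 TPM (SLC38A4). No member reached the minimum in libraries of 1 group alone, and 196 of the 235 reached it in all 12 libraries. SLC34A2, SLC17A2, SLC35F1 and SLC1A7 reached it only in libraries of PGF2α cows. Their higher counts after PGF2α are therefore not independent of the count minimum. SLC28A2, SLC22A16, SLC2A5 and SLC15A1 passed only with the 12 h libraries counted, and SLC6A4 only with those of 4 h. The higher counts of these genes at those times are likewise not independent of it. SLC35B4, SLC4A5, SLC4A8, SLC7A4, SLC26A1 and SLC6A4 reached it in no 12 h library. They passed on control and 4 h libraries, so their low 12 h counts are not independent of it either. SLC7A6OS, an opposite-strand neighbour of SLC7A6, SLC2A4RG, a regulator of SLC2A4, and SLC9A3R1 and SLC9A3R2, scaffold proteins, carry a solute carrier name without being transporters and were kept as the name rule gives them.

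Solute carriers are membrane proteins that move sugars, amino acids, nucleosides, vitamins, ions, metals and metabolites across the plasma membrane and the membranes of organelles. Many of them couple the movement of their substrate to a gradient of sodium, protons or another solute, and some need an accessory protein to reach the membrane. The corpus luteum is a gland that forms from the ovulated follicle and secretes progesterone. It draws substrate from a dense capillary bed, and luteal tissue is known for a high content of vitamin C. In cattle, PGF2α ends progesterone secretion and then dismantles the gland.

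All animals were cows of mixed breed whose cycles had been synchronised to the mid-luteal phase (day 10), with no genetic modification stated. Control cows received saline by intramuscular injection and the others a luteolytic dose of PGF2α. Corpora lutea of the PGF2α cows were taken by ovariectomy 4 h or 12 h later. The sample labels give no time after injection for the controls. Each group held 4 cows with 1 library each: cow4285, cow6464, cow7367 and cow7514 were controls, cow4291, cow5341, cow6455 and cow6456 were in the 4 h group, and cow5266, cow6314, cow7382 and cow7475 were in the 12 h group. Values per cow are given in that order throughout. Whole corpus luteum was sequenced, so fewer cells of a type and less RNA per cell cannot be told apart in any of the values.

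Totals ran from 10263310 to 22600213 expected counts per library in controls, 15527149 to 22352909 at 4 h and 12471493 to 17880450 at 12 h. Cow6455 at 4 h and cow6314 at 12 h had the lowest mean correlation with the other libraries of their group (0.9745 and 0.9753 on log2(CPM + 1), against 0.9769 to 0.9832 for the other 10), so the main counts are also given without both. Transcript length averaged with TPM as weights was 1583 ± 41.9 bases in controls and 1379 ± 69.7 at 12 h, and mitochondrially encoded transcripts took 8.94% ± 1.51 and 11.6% ± 3.04 of counts (SD, n = 4 each). The median log2 fold change of all genes at 12 h was 0.01 on TMM-scaled counts and -0.25 on log2(TPM + 1), so a change at 12 h reads lower on the TPM scale. TPM (a transcript's share of the library, corrected for its length) was used for levels, and edgeR on TMM-scaled counts for tests. Fold changes are log2 values of that fit, and adjusted p-values are Benjamini-Hochberg values of edgeR over 14481 genes with a threshold of 0.05.

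In control corpora lutea, 15 of the 235 genes were at 100 TPM or more, 110 were between 10 and 100, 81 between 1 and 10 and 29 below 1, with a median of 11.04 TPM. The most abundant was SLC25A6, an adenine nucleotide carrier of the inner mitochondrial membrane, at 789 ± 94.6 TPM in control cows, 804 ± 109 in 4 h cows and 731 ± 32.6 in 12 h cows (SD, n = 4 each). SLC25A4, SLC25A5 and SLC25A6 are close paralogs, so the division of reads among them is uncertain. SLC25A1, the mitochondrial citrate carrier, and SLC25A3, the mitochondrial phosphate carrier, followed at 636 ± 84.6 and 631 ± 69.3 TPM. The next most abundant members outside the mitochondria were the nucleoside transporter SLC29A1 at 256 ± 17.9 TPM and SLC35F5, which belongs to the nucleotide sugar transporter family, at 241 ± 29.4 TPM. The mean levels of SLC25A1 and SLC25A3 differed by less than their SDs, as did those of SLC29A1 and SLC35F5.

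At 4 h post-PGF2α, 24 of the 235 genes rose and 13 fell. Among all 14481 genes, 8.65% rose and 5.59% fell, so the members were called at 10.2% and 5.53%, close to that background. On log2(TPM + 1), limma called 21 up and 8 down, against 6.41% and 4.88% of all genes. In TMM-scaled CPM, the 4 h cows were all above the controls for 29 members and all below for 17, against 10.2% and 9.5% of all genes. The largest called change was in SLC34A2, a sodium-phosphate cotransporter that reached the count minimum only in PGF2α cows. The largest among genes of 1 TPM or more in controls was in SLC19A2, a thiamine transporter. The count of 13 that fell rested on several single cows, since it was between 3 and 12 with any 1 cow left out. The smallest count came without cow5341, and it was 5 without cow7367, cow7514 or cow6455, 6 without cow4291, 7 without cow4285 and 8 without cow6456 or cow7475. The 24 rises stayed between 22 and 28. Without cow6455 and cow6314 together, 28 rose and 6 fell.

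At 12 h, 50 members rose and 82 fell, against 23.6% and 25.3% of all genes. The members were thus called up at 21.3% and down at 34.9%. Their median log2 fold change was -0.09 against 0.01 for all genes, and on log2(TPM + 1) it was -0.31 against -0.25. On log2(TPM + 1), limma called 27 up and 108 down, where 10.4% and 38.9% of all genes were called. In TMM-scaled CPM, the 12 h cows were all above the controls for 44 members and all below for 76, against 21% and 23% of all genes. Without cow6455 and cow6314, 48 rose and 84 fell. Among the members named here, the rises in SLC12A4, SLC16A11, SLC17A5, SLC19A1, SLC25A27, SLC2A3, SLC35B2, SLC35F1, SLC39A13, SLC43A3, SLC66A2, SLC7A6OS and SLC8B1 were no longer called on log2(TPM + 1).

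Summed over the 235 genes, the TPM was 7658 ± 251 in controls (7437 to 7903), 7921 ± 422 at 4 h (7388 to 8291) and 5644 ± 78.3 at 12 h (5580 to 5749, SD, n = 4 each). The 12 h cows lay below every control and the 4 h cows overlapped the controls. The ratio of the 12 h mean to the control mean was 0.737. Part of this lies in the scale, since the 12 h median of all genes was -0.25 on log2(TPM + 1). As a percentage of expected counts, the members averaged 1.05% for controls (range 0.997% to 1.09%). For 12 h cows the average was 0.885% (range 0.847% to 0.908%), a smaller fall that still left them below every control. The class sums given below are in TPM too. Direct comparison of the PGF2α groups called 34 members higher and 89 lower at 12 h than at 4 h, against 22.5% and 24.3% of all genes. On log2(TPM + 1) those numbers were 16 and 115, against 9% and 35.9%. In TMM-scaled CPM, the 12 h cows were all above the 4 h cows for 33 members and all below for 79, against 20.5% and 21.3% of all genes.

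**Figure D1:**
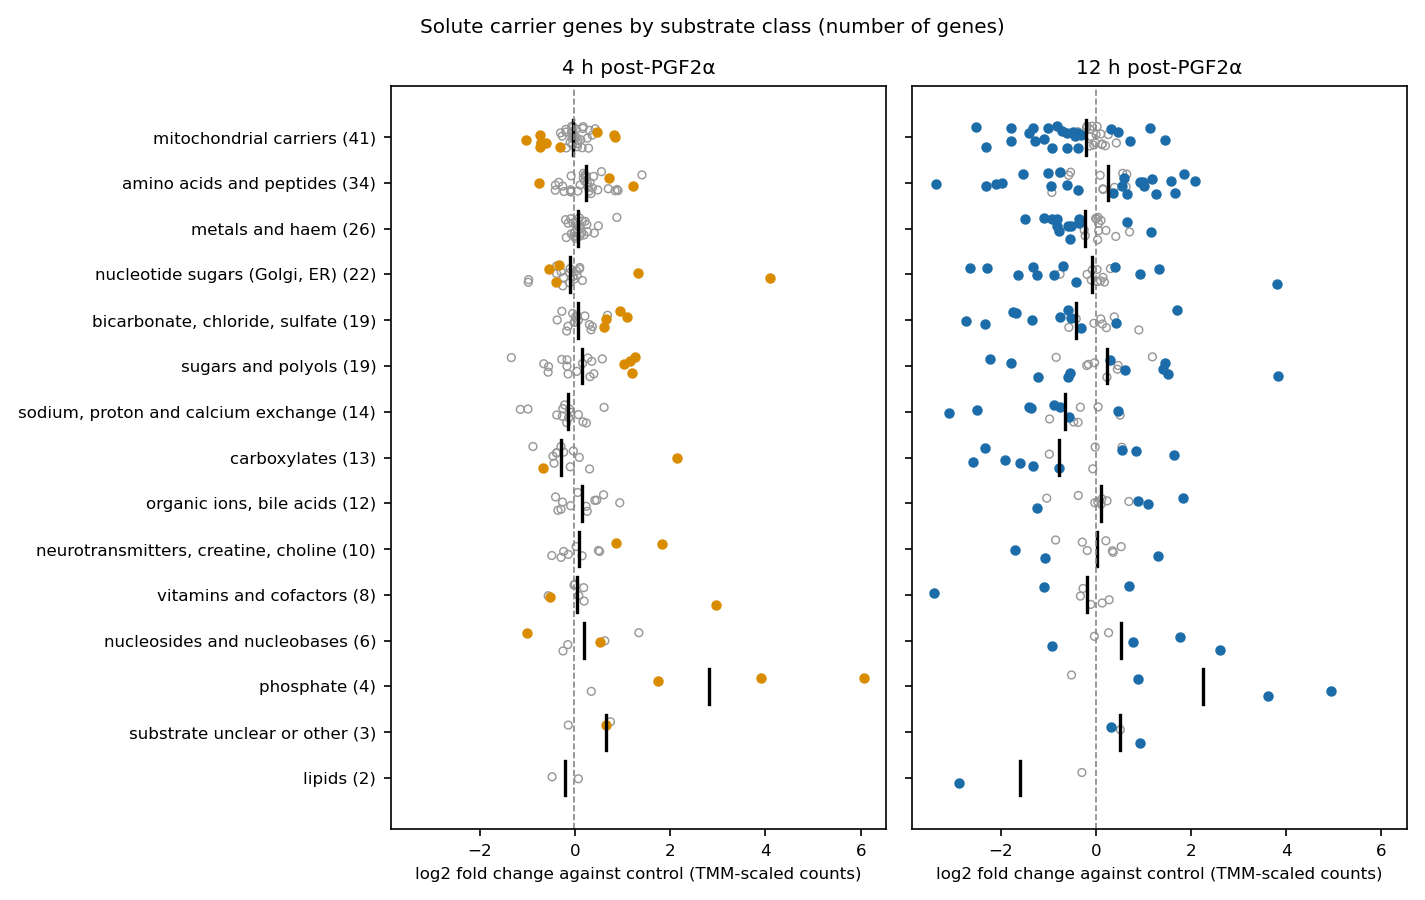
Log2 fold change against control (horizontal axis, TMM-scaled counts) of each solute carrier gene, by substrate class (vertical axis, with the number of genes), at 4 h (left) and 12 h (right). Filled points passed the edgeR test, open points did not, black bars are class medians and the dashed line is the median of all genes tested. At 12 h, 50 of the 235 genes rose and 82 fell, with called genes on both sides of 0 in most classes.

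The corpus luteum holds several cell types, and their markers moved as well. Of 11 luteal steroidogenic genes tested, 1 rose and 8 fell at 12 h, and the summed TPM of that list was 21261 to 31127 in controls, 20103 to 24047 at 4 h and 5555 to 11135 at 12 h. Of 12 macrophage and monocyte markers, 8 rose at 12 h, with sums of 206 to 636 TPM in controls and 527 to 824 at 12 h. Of 9 neutrophil markers 5 rose at 12 h (sums 32.2 to 77.4 and 113 to 283 TPM), of 10 fibroblast markers 5 rose (sums 6939 to 20613 and 6721 to 19288 TPM), 2 of 12 endothelial markers rose while 2 fell, among 10 markers of pericytes or smooth muscle 2 rose while 1 fell, and a single one of 12 lymphocyte markers (T and NK) rose. Of the erythrocyte list HBA passed the count minimum and rose, while HBB, ALAS2 and AHSP were below it. At 4 h, 1 steroidogenic marker fell and 1 macrophage and 1 neutrophil marker rose. Also at 4 h, 2 endothelial markers rose and 2 fell, 2 markers of pericytes or smooth muscle rose, and 1 lymphocyte marker fell. The 12 lymphocyte markers had a median log2 fold change of -1.10 at 4 h, with 10 at an unadjusted p under 0.05, and sums of 37.6 to 144 TPM in controls, 30.7 to 44.9 at 4 h and 55.2 to 64.4 at 12 h. Of all genes, 23.6% rose and 25.3% fell at 12 h, and 8.65% and 5.59% at 4 h. At 12 h, 72.7% of steroidogenic genes fell, and 66.7% of macrophage, 55.6% of neutrophil and 50% of fibroblast markers rose. The 12 h shares that rose and fell were 16.7% and 16.7% of endothelial and 20% and 10% of pericyte or smooth muscle markers. For lymphocyte markers they were 8.33% and 0%. The part of these cell types in the changes of solute carriers was not tested.

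Vitamin transporters held both the steepest fall and one of the steepest rises. SLC23A2 (chromosome 13, 47209404 to 47348038 of ARS-UCD1.2), which carries vitamin C into cells, was at 71.4, 80.5, 50.8 and 60.1 TPM in the controls, 102, 86.3, 37.9 and 68.7 at 4 h and 6.12, 3.48, 5.64 and 4.56 at 12 h. All 12 h cows lay far below the controls, and the 4 h cows overlapped them. The 12 h mean was 0.0753 times the control mean (log2 fold change -3.40, SE 0.30, adjusted p = 9.86e-06), while at 4 h the value was 0.19, adjusted p = 0.683. None of the 235 genes fell by more at 12 h.

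SLC19A2 (chromosome 16, 37095531 to 37128086), which carries thiamine, was at 3.23, 5.28, 4.54 and 3.88 TPM in the controls, 20.4, 44.1, 31.8 and 33.6 at 4 h and 4.78, 3.55, 4.07 and 4.26 at 12 h. Its rise was seen in every 4 h cow and its 12 h values lay among the controls. The 4 h mean was 7.67 times the control mean (log2 fold change 2.96, SE 0.25, adjusted p = 3.26e-05). At 12 h the log2 fold change was 0.28, adjusted p = 0.378, and the direct comparison of 12 h with 4 h gave -2.68, SE 0.25, adjusted p = 1.61e-05. Among the 8 vitamin and cofactor carriers, 1 rose and 1 fell at 4 h, and 1 rose and 2 fell at 12 h. The shares were 12.5% and 12.5% at 4 h and 12.5% and 25% at 12 h. Those of all genes were 8.65% and 5.59%, then 23.6% and 25.3%. SLC5A6, which carries biotin and pantothenate, also fell at 12 h, from 35.9 to 13.7 TPM (log2 fold change -1.09, SE 0.19, adjusted p = 0.000518). The riboflavin transporter SLC52A2 was the most abundant of the class at 161 TPM (mean) in control cows, 157 in 4 h cows and 107 in 12 h cows and did not pass the edgeR test at 12 h (-0.27, adjusted p = 0.121). The fall of the proton-coupled folate transporter SLC46A1 at 4 h (-0.52, adjusted p = 0.0361) lost its call when any of 10 cows was left out, and the reduced folate carrier SLC19A1 rose at 12 h (0.70, adjusted p = 0.0109) on the count scale. Over the class, summed TPM was 307 ± 17.6 in control cows, 343 ± 21.8 in 4 h cows and 165 ± 13.6 in 12 h cows (SD, n = 4 each).

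**Figure D2:**
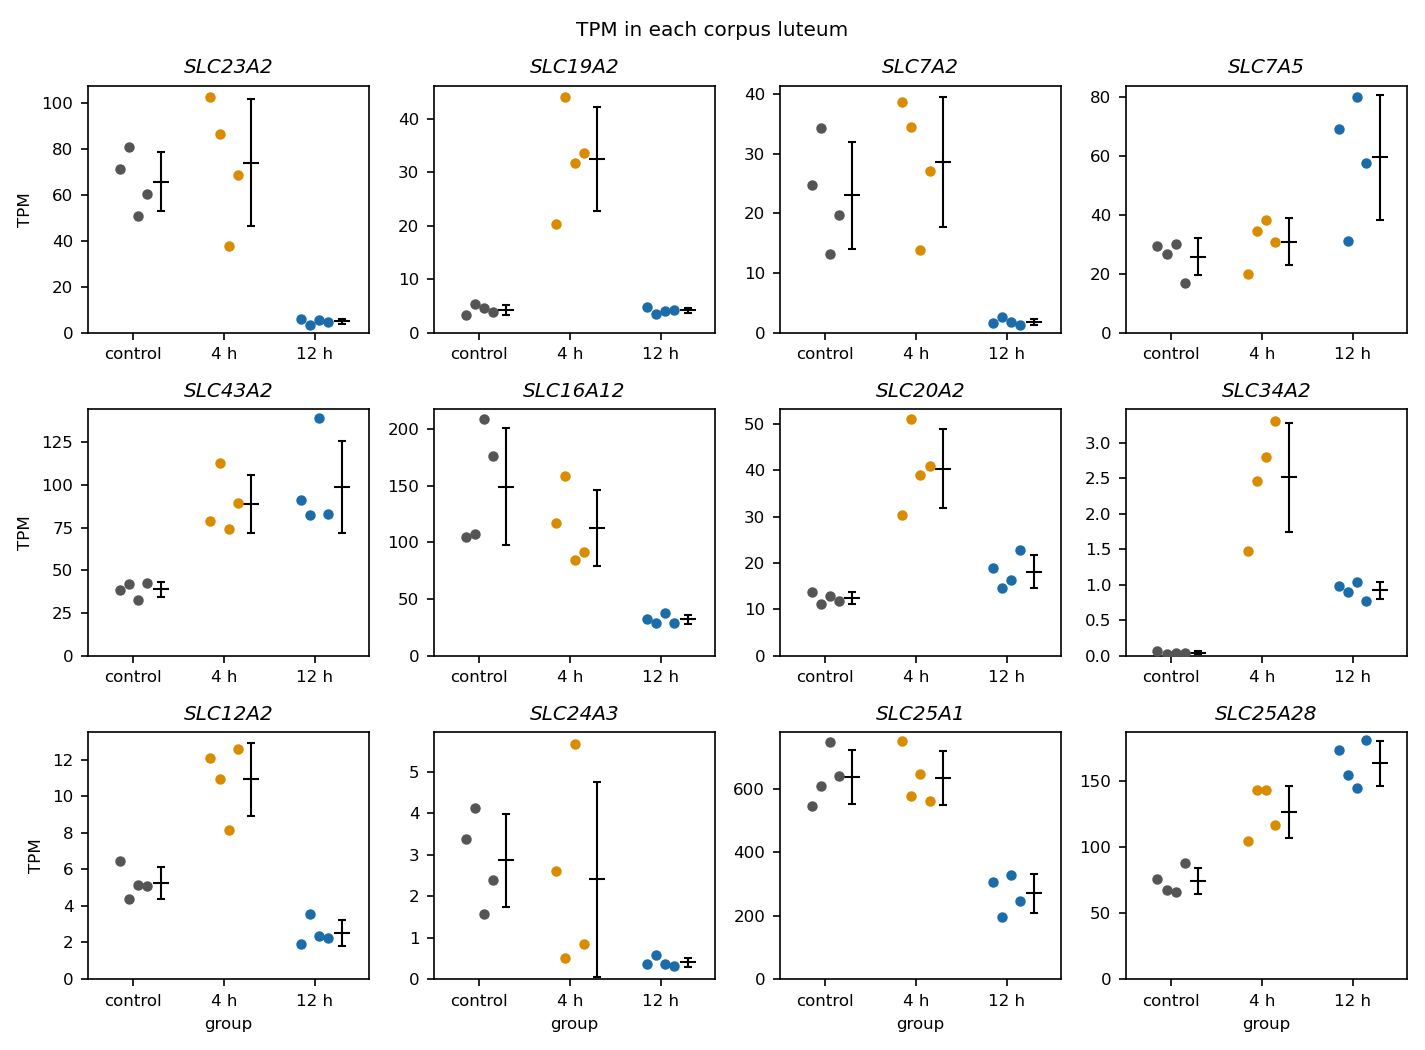
TPM (vertical axis, linear, from 0) of 12 solute carrier genes in each cow of the control, 4 h and 12 h groups (horizontal axis). Points are cows and black bars are the mean with SD of 4 cows. SLC23A2 and SLC7A2 were low in all 12 h cows, SLC19A2 was high at 4 h, and SLC43A2 and SLC25A28 were above all controls at both times.

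Of the 4 phosphate transporters, 3 rose at 4 h and 3 rose at 12 h, and 0 fell at either time by edgeR. The share that rose was 75% at each time, against 8.65% at 4 h and 23.6% at 12 h of all genes. Among those rises, SLC34A2 and SLC17A2 passed the count minimum only through PGF2α cows, so this count is not independent of the minimum. At 4 h, 3 had an unadjusted p under 0.05, and at 12 h, 4 did. DESeq2 called 0 down at either time, and edgeR called 1 down at 12 h without cow7367. SLC20A2 (chromosome 27, 37252190 to 37363184), a sodium-phosphate transporter of most cell types, was at 13.8, 11.2, 13.0 and 11.7 TPM in the controls, 30.3, 51.1, 39.0 and 40.9 at 4 h and 18.9, 14.6, 16.4 and 22.7 at 12 h. The PGF2α groups lay above all controls, and the 4 h cows were higher than the 12 h cows. The log2 change was 1.74, SE 0.20, adjusted p = 0.000177 at 4 h, 0.88, SE 0.19, adjusted p = 0.00257 at 12 h and -0.86, SE 0.19, adjusted p = 0.00297 for 12 h with 4 h.

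SLC34A2 (chromosome 6, 45178485 to 45205946), a sodium-phosphate cotransporter of epithelia, was near 0 in controls. It had 6 counts in all over the 4 controls (1 to 2 per cow), 439 at 4 h (79 to 127 per cow) and 160 at 12 h (27 to 47 per cow). Every treated cow was above every control. The count rate at 4 h was 67.9 times that of controls (95% exact interval 31.0 to 186) and at 12 h 31.1 times (14.0 to 86.0), intervals that cover counting error only. The edgeR adjusted p was 4.13e-06 at 4 h and 5.56e-06 at 12 h, and the 12 h level was below that at 4 h (-1.12, adjusted p = 0.00373). The 4 h mean was 2.52 ± 0.772 TPM (SD, n = 4). SLC17A2, of a phosphate transporter family, had 4 counts over the controls, 69 at 4 h and 41 at 12 h, with count rates 16.0 times (5.98 to 60.4) and 12.0 times (4.33 to 46.0) that of controls. SLC20A1, the most abundant of the class at 41.3 ± 14.0 TPM in control cows, 50.8 ± 10.8 in 4 h cows and 23.4 ± 3.07 in 12 h cows (SD, n = 4 each), did not pass at either time (0.34, adjusted p = 0.336 at 4 h and -0.51, adjusted p = 0.0768 at 12 h) but was lower at 12 h than at 4 h (-0.85, adjusted p = 0.00818). XPR1, which exports phosphate and is not a solute carrier by name, fell at 12 h, from 8.39 to 2.55 TPM (log2 fold change -1.41, SE 0.24, adjusted p = 0.000479).

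Of 34 amino acid and peptide transporters, 13 rose and 10 fell at 12 h (38.2% and 29.4%, against 23.6% and 25.3% of all genes), with a median log2 fold change of 0.25 on counts and -0.01 on log2(TPM + 1). At 4 h 2 rose and 1 fell (5.88% and 2.94%, against 8.65% and 5.59% of all genes). The 4 h rises numbered 5 without cow4285 and 4 without cow6314, and the 1 fall (SLC1A4, -0.76, adjusted p = 0.0483, outside the naming rule) kept its call without cow7367 and lost it without any 1 of the other 11 cows. The largest falls were in carriers of cationic and aromatic amino acids. SLC7A2 (chromosome 27, 19719908 to 19745898), which carries arginine, lysine and ornithine, was at 24.8, 34.3, 13.2 and 19.8 TPM in the controls, 38.7, 34.5, 13.9 and 27.0 at 4 h and 1.60, 2.55, 1.79 and 1.32 at 12 h. The 12 h cows were all below the lowest control, and the 4 h cows overlapped the controls. Its 12 h mean was 0.0789 times the control mean (log2 fold change -3.35, SE 0.35, adjusted p = 2.17e-05).

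SLC7A1 (chromosome 12, 30934105 to 30991889), the other cationic amino acid transporter among the called falls named here, was at 13.1, 12.4, 11.8 and 11.8 TPM in the controls, 15.2, 25.9, 9.40 and 16.5 at 4 h and 2.10, 1.83, 2.47 and 2.82 at 12 h. Again the 12 h cows stood apart below the controls (-2.10, SE 0.27, adjusted p = 6.84e-05), whereas the 4 h value was 0.48, adjusted p = 0.215. SLC16A10, which carries aromatic amino acids, was lower, at 2.67 TPM (mean) in control cows, 4.67 in 4 h cows and 0.438 in 12 h cows, and fell at 12 h (-2.32, SE 0.48, adjusted p = 0.00175). Each of these 3 genes was also lower at 12 h than at 4 h, with log2 fold changes of -3.68, -2.57 and -3.16. SLC7A1 passed on 49 to 60 counts per cow at 12 h, and SLC16A10 on 4 to 13.

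Genes that serve the transport of large neutral amino acids were among those that rose. SLC7A5 (chromosome 18, 13298147 to 13327247), the light chain of a leucine exchanger, was at 29.4, 26.8, 30.0 and 16.8 TPM in the controls, 19.8, 34.3, 38.3 and 30.9 at 4 h and 69.1, 31.0, 80.0 and 57.3 at 12 h. The lowest 12 h cow, cow6314, was close to the highest control and the other 12 h cows were well above it. The 12 h log2 fold change was 1.58, SE 0.32, adjusted p = 0.00162 and that at 4 h was 0.31, adjusted p = 0.556. SLC3A2, the heavy chain that SLC7A5 and SLC7A7 need at the membrane, was at 76.9, 68.7, 66.7 and 58.7 TPM in the controls, 94.7, 103, 136 and 99.3 at 4 h and 90.3, 82.1, 87.0 and 84.9 at 12 h. It was above all controls in every PGF2α cow (0.70, SE 0.15, adjusted p = 0.00962 at 4 h and 0.66, SE 0.15, adjusted p = 0.00320 at 12 h).

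SLC43A2 (chromosome 19, 22690663 to 22730143), another carrier of large neutral amino acids, was at 38.4, 42.0, 32.9 and 42.8 TPM in the controls, 78.9, 113, 74.3 and 89.3 at 4 h and 90.9, 82.5, 139 and 82.8 at 12 h. Both treated groups were above all controls, with log2 fold changes of 1.22, SE 0.19, adjusted p = 0.00160 at 4 h and 1.66, SE 0.20, adjusted p = 4.23e-05 at 12 h, and the 12 h and 4 h levels did not pass the test of their difference (0.44, adjusted p = 0.0736). SLC7A7, a partner of SLC3A2 that exchanges cationic for neutral amino acids, rose at 12 h (1.27, SE 0.28, adjusted p = 0.00257), although in TPM the 12 h cows overlapped the controls. SLC38A10 and SLC38A2, the most abundant of the class at 109 and 97.2 TPM in controls, differed in outcome. SLC38A2, a sodium-coupled carrier of small neutral amino acids, did not pass at 12 h (0.15, adjusted p = 0.493), and SLC38A10 had a log2 fold change of -0.36 that was called (adjusted p = 0.00357) except with the transcript length offset (-0.16, adjusted p = 0.179). Summed TPM of the class was 557 ± 23.3 in control cows, 665 ± 53.7 in 4 h cows and 610 ± 38.2 in 12 h cows (SD, n = 4 each). CTNS, which exports cystine from lysosomes, rose at 12 h on counts (0.62, adjusted p = 0.00105). By limma on log2(TPM + 1) it was not called (0.28, adjusted p = 0.136).

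The 12 h sum of the carriers of lactate, ketone bodies and other carboxylates was 0.343 times that of controls, and 0.457 times without SLC16A12. Summed TPM of the 13 genes was 316 ± 62.9 in control cows, 264 ± 37.3 in 4 h cows and 108 ± 9.09 in 12 h cows (SD, n = 4 each). Of the 13, 3 rose and 6 fell at 12 h (23.1% and 46.2%, against 23.6% and 25.3% of all genes), with a median log2 fold change of -0.77. At 4 h 1 rose and 1 fell (7.69% each, against 8.65% and 5.59% of all genes). The largest part of the sum came from SLC16A12 (chromosome 26, 11104543 to 11177185), a creatine transporter of the monocarboxylate transporter family. It was at 105, 108, 208 and 177 TPM in the controls, 117, 158, 84.7 and 91.2 at 4 h and 32.8, 29.1, 37.7 and 29.2 at 12 h. The controls formed a low and a high pair and every 12 h cow was below both. The log2 change was -1.91, SE 0.26, adjusted p = 0.000113 at 12 h and -0.39, adjusted p = 0.331 at 4 h.

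SLC16A7, a high-affinity pyruvate and lactate transporter, was at 62.1 ± 6.50 TPM in control cows, 46.7 ± 9.93 in 4 h cows and 19.5 ± 3.31 in 12 h cows (SD, n = 4 each) and fell at 12 h (-1.33, SE 0.19, adjusted p = 0.000137). SLC16A1, the widely expressed lactate transporter, fell by less (-0.77, adjusted p = 0.000847). SLC16A14, whose substrate is not established, and SLC5A8, a sodium-coupled monocarboxylate transporter, fell with log2 fold changes of -2.34 (adjusted p = 2.69e-05) and -2.57 (adjusted p = 0.000102). In TPM, every 12 h cow was below every control for SLC16A12, SLC16A7, SLC16A1, SLC16A14 and SLC5A8. The direction was opposite in SLC13A3 (chromosome 13, 75255202 to 75339020), a sodium-coupled dicarboxylate transporter, at 2.68, 2.87, 3.57 and 4.96 TPM in the controls, 9.63, 21.5, 15.5 and 14.9 at 4 h and 8.71, 6.88, 8.77 and 11.2 at 12 h. All 8 PGF2α cows were above the controls (2.15, SE 0.28, adjusted p = 0.000473 at 4 h and 1.65, SE 0.28, adjusted p = 0.000481 at 12 h). SLC16A11 fell at 4 h (-0.67, adjusted p = 0.00939) and was above control at 12 h on counts (0.54, adjusted p = 0.00701), a rise that was not called on log2(TPM + 1) (adjusted p = 0.152). BSG and NPTN, accessory proteins that bring monocarboxylate transporters to the membrane, were called up on the count scale. BSG was at 705 TPM (mean) in control cows, 768 in 4 h cows and 746 in 12 h cows with a log2 fold change of 0.41, adjusted p = 0.0389 at 12 h, and NPTN had 0.29, adjusted p = 0.0406 at 4 h and 0.34, adjusted p = 0.00525 at 12 h, where its mean TPM of 70.8 was below the 73.2 of controls. By limma on log2(TPM + 1), BSG and NPTN were not called at 12 h (adjusted p = 0.602 and 0.744). For BSG the 12 h cows overlapped the controls in TMM-scaled CPM too. EMB was below the count minimum.

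**Figure D3:**
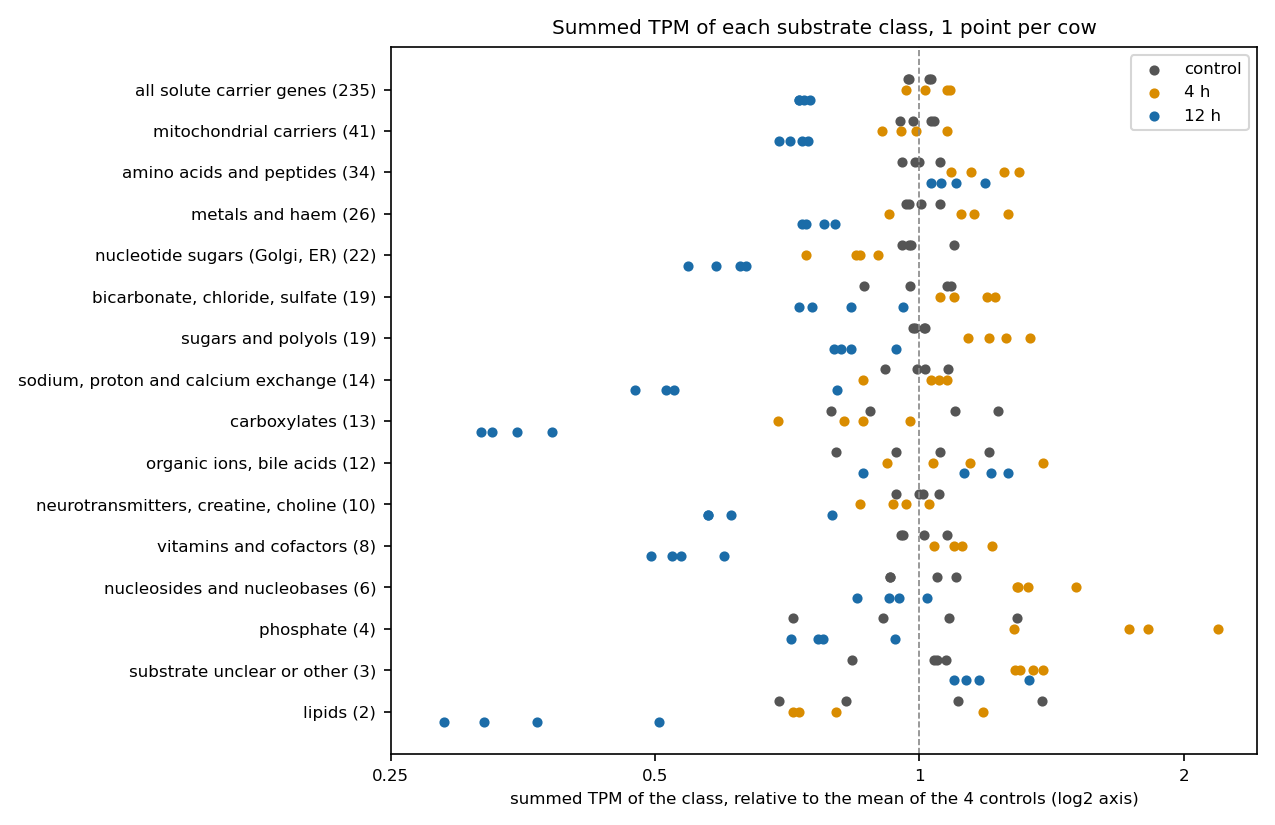
Summed TPM of each substrate class in each cow, divided by the mean of the 4 controls (horizontal axis, log2 scale), with all 235 genes in the top row and the number of genes per class in brackets (vertical axis). Grey points are controls, orange 4 h and blue 12 h, and the dashed line is the control mean. All 12 h cows lie below all controls for the carboxylate, vitamin, mitochondrial, nucleotide sugar, metal, sodium and proton, neurotransmitter, sugar and lipid classes. The same holds for all 235 genes together. In the amino acid, bicarbonate, nucleoside, organic ion and phosphate classes the 12 h cows overlap the controls, and in the class of unclear substrate they lie above them.

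The mitochondrial carrier family (SLC25) moves metabolites, nucleotides and cofactors across the inner mitochondrial membrane. It made up the largest class, with 41 genes. At 12 h 5 rose and 19 fell (12.2% and 46.3%, against 23.6% and 25.3% of all genes), with a median log2 fold change of -0.20 on counts and -0.44 on log2(TPM + 1). At 4 h 3 rose and 6 fell (7.32% and 14.6%, against 8.65% and 5.59% of all genes). The 4 h falls depended on single cows, with 1 left without cow7367, cow7514 or cow5341, 2 without cow6455 or cow6456 and 3 without cow4285, cow4291, cow6314 or cow7475, and the rises at 12 h numbered 2 without cow7475. Summed TPM was 3290 ± 137 in control cows, 3229 ± 235 in 4 h cows and 2373 ± 77.5 in 12 h cows (SD, n = 4 each).

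SLC25A1 (chromosome 17, 72617237 to 72620215), which exports citrate for fatty acid and sterol synthesis, was at 546, 608, 748 and 639.9 TPM in the controls, 749, 577, 647 and 562 at 4 h and 307, 196, 329 and 247 at 12 h. The 12 h cows were all below the controls and the 4 h cows were not (-0.93, SE 0.20, adjusted p = 0.00234 at 12 h and 0.03, adjusted p = 0.946 at 4 h). SLC25A3 also fell at 12 h, from 631 to 383 TPM (-0.43, adjusted p = 0.0230), a call lost without cow7367, cow7514 or cow6314, while SLC25A6 did not pass (0.20, adjusted p = 0.233). Larger falls were seen in carriers of lower level. SLC25A42, which carries coenzyme A, was at 2.88, 3.48, 4.97 and 5.35 TPM in the controls, 2.27, 1.45, 1.79 and 2.55 at 4 h and 0.55, 0.86, 0.52 and 0.45 at 12 h, below all controls in TPM at both times (-1.03, SE 0.25, adjusted p = 0.0190 at 4 h and -2.51, SE 0.28, adjusted p = 3.15e-05 at 12 h). The 4 h call was lost without cow7367, cow7514 or cow5341 (adjusted p = 0.0574, 0.0662 and 0.0590).

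SLC25A15, the ornithine carrier of the urea cycle, fell to 0.162 times the control mean at 12 h (-2.31, SE 0.24, adjusted p = 2.09e-05), as did SLC25A30 (-1.79, adjusted p = 6.75e-05) and SLC25A35 (-1.79, adjusted p = 5.67e-05), whose substrates are less well established, to a smaller degree. SLC25A13, an aspartate-glutamate carrier, fell at both times (-0.74, adjusted p = 0.00430 at 4 h and -1.27, adjusted p = 2.94e-05 at 12 h). The 4 h falls of SLC25A15 (adjusted p = 0.0437) and SLC25A30 (adjusted p = 0.0472) were near the threshold and were lost under several alternatives. In contrast, SLC25A28 (chromosome 26, 20596417 to 20607094), a mitochondrial iron importer, was at 75.4, 67.1, 66.1 and 87.9 TPM in the controls, 104, 143, 143 and 117 at 4 h and 174, 154, 145 and 181 at 12 h. Its level was above all controls in all 8 PGF2α cows (0.82, SE 0.15, adjusted p = 0.00479 at 4 h and 1.46, SE 0.16, adjusted p = 2.45e-05 at 12 h) and higher at 12 h than at 4 h (0.65, adjusted p = 0.00449). SLC25A17, which serves peroxisomes, rose at 12 h (1.13, SE 0.16, adjusted p = 0.000120). SLC25A33, a pyrimidine nucleotide carrier, and SLC25A32, a folate or flavin carrier, rose at 4 h (0.84, adjusted p = 0.0330 and 0.47, adjusted p = 0.0149), the first of which was lost without any of 7 cows.

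Among other mitochondrial proteins that pass metabolites, SFXN1, a serine transporter, fell at both times (-0.88, adjusted p = 0.00984 at 4 h and -1.60, adjusted p = 5.34e-05 at 12 h). The outer membrane channels VDAC1 and VDAC3 fell at 12 h (-0.35 and -0.47, adjusted p = 0.0417 and 0.000947). The pyruvate carrier subunits MPC1 and MPC2 did not pass at either time, with 12 h log2 fold changes of -0.07 and -0.17.

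The sodium, proton and calcium class held 14 genes, among them the scaffolds SLC9A3R1 and SLC9A3R2. At 12 h 7 fell and 1 rose (50% and 7.14%, against 25.3% and 23.6% of all genes), with a median log2 fold change of -0.65. At 4 h 0 of the 14 were called by edgeR, where 4 had an unadjusted p below 0.05 and DESeq2 called 1 up and 1 down. Leaving out cow7514, cow6455, cow5266 or cow6314 gave 1 rise at 4 h, and leaving out cow4285, cow6464 or cow6314 gave 1 fall. Summed TPM was 338 ± 22.96 in control cows, 340 ± 32.8 in 4 h cows and 196 ± 51.2 in 12 h cows (SD, n = 4 each). Most of that sum came from the scaffolds. SLC9A3R2 was at 156 TPM (mean) in control cows and 99.5 in 12 h cows, and SLC9A3R1 at 59.0 and 34.4.

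SLC9B2, a sodium-proton antiporter, fell from 7.14 to 0.693 TPM at 12 h (-3.08, SE 0.38, adjusted p = 5.32e-05), and its relative SLC9B1 fell with -1.36, adjusted p = 0.00517. SLC24A3, a potassium-dependent sodium-calcium exchanger, was at 3.37, 4.12, 1.56 and 2.40 TPM in the controls, 2.60, 0.52, 5.67 and 0.84 at 4 h and 0.37, 0.57, 0.37 and 0.31 at 12 h. Its 4 h values were split, with cow4291 and cow6455 in or above the control range and cow5341 and cow6456 below it, and the 12 h cows were all low (-2.49, adjusted p = 0.00952). Its difference between 12 h and 4 h (-2.31, adjusted p = 0.0148) was not called without cow6455 (-1.39, adjusted p = 0.0509). SLC8B1, a mitochondrial sodium-calcium exchanger, was the 1 that rose (0.46, adjusted p = 0.0248), and lost its call without cow5266 or cow7382. The same held with the transcript length offset (0.40, adjusted p = 0.0513). The scaffold SLC9A3R2, highest in level at 156 TPM in controls, did not pass (-0.37, adjusted p = 0.307). The sodium pump, which maintains the gradient these transporters use, is built of several subunits. The subunit ATP1B1 fell at 12 h from 239 to 99.3 TPM (-0.96, adjusted p = 2.83e-05). ATP1B2 fell at 12 h (-0.94, adjusted p = 0.00908), while FXYD5, a pump regulator, rose (0.99, adjusted p = 3.19e-05). ATP1B3, the most abundant subunit at 500.4 TPM in controls, did not pass (-0.32, adjusted p = 0.365). Of the 23 partner genes tested in all, 3 rose and 1 fell at 4 h and 5 rose and 7 fell at 12 h. These are shares of 13.0% and 4.35% at 4 h and 21.7% and 30.4% at 12 h, near those of all genes (8.65% and 5.59%, then 23.6% and 25.3%).

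Among anion and cation-chloride transporters, the genes called at 4 h rose and most of those called at 12 h fell. Of the 19 genes for bicarbonate, chloride, sulfate and iodide, 4 rose and 0 fell at 4 h by edgeR (5 with an unadjusted p under 0.05, 0 down by DESeq2), and 2 rose and 9 fell at 12 h. The shares were 21.1% and 0% at 4 h and 10.5% and 47.4% at 12 h. Those of all genes were 8.65% and 5.59%, then 23.6% and 25.3%. SLC12A2 (chromosome 7, 25761272 to 25853058), which brings sodium, potassium and chloride into cells, was at 6.44, 4.37, 5.12 and 5.08 TPM in the controls, 12.1, 10.9, 8.13 and 12.6 at 4 h and 1.91, 3.55, 2.36 and 2.24 at 12 h. The 4 h cows were all above the controls and the 12 h cows all below. The log2 fold changes were 1.09, SE 0.16, adjusted p = 0.000806 at 4 h, -0.76, SE 0.16, adjusted p = 0.00193 at 12 h and -1.85, SE 0.16, adjusted p = 1.25e-05 between the times.

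SLC4A7, a sodium-bicarbonate cotransporter, rose at 4 h (0.95, SE 0.19, adjusted p = 0.00617) and not at 12 h (0.39, adjusted p = 0.107). SLC12A4, a potassium-chloride cotransporter, rose at 4 h (0.65, adjusted p = 0.000718), and its 12 h rise (0.42, adjusted p = 0.00221) was 0.11 on log2(TPM + 1), where it was not called (adjusted p = 0.424). SLC26A2, a sulfate transporter that supplies sulfation, fell at 12 h (-1.74, SE 0.26, adjusted p = 0.000191), as did the bicarbonate transporter SLC4A4 (-2.33, adjusted p = 0.00154) and the potassium-chloride cotransporter SLC12A5 (-1.34, adjusted p = 0.000118), both near 1 TPM in controls. SLC26A11, the most abundant of the class at 47.8 TPM in controls, did not pass at either time (-0.18, adjusted p = 0.676 at 4 h and 0.14, adjusted p = 0.658 at 12 h).

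The sugar and polyol class held 19 genes, among them the regulator SLC2A4RG, which is not a transporter. At 4 h 4 rose and 0 fell by edgeR (7 with an unadjusted p under 0.05, 2 down by DESeq2, and 1 down by edgeR without cow6464, cow7367 or cow7382). These are shares of 21.1% and 0%, against 8.65% and 5.59% of all genes. At 12 h 6 rose and 5 fell (31.6% and 26.3%, close to the 23.6% and 25.3% of all genes). SLC2A3, a high-affinity glucose transporter, was at 11.9, 10.2, 10.6 and 10.6 TPM in the controls, 18.7, 26.3, 25.2 and 26.3 at 4 h and 10.5, 15.3, 17.1 and 10.9 at 12 h. Each 4 h cow was above all controls (1.19, SE 0.16, adjusted p = 0.000453). At 12 h the value was 0.62, adjusted p = 0.00573 on counts and 0.26 on log2(TPM + 1), which was not called (adjusted p = 0.198), and the 12 h cows overlapped the controls in TPM. SLC37A3, of the sugar-phosphate exchanger family, was at 19.3, 18.2, 16.7 and 17.4 TPM in the controls, 36.1, 62.5, 30.1 and 40.0 at 4 h and 41.9, 41.2, 41.1 and 29.4 at 12 h. All 8 PGF2α cows were above all controls (1.26, SE 0.19, adjusted p = 0.00125 at 4 h and 1.41, SE 0.19, adjusted p = 0.000117 at 12 h).

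SLC37A2 of the same family rose at 12 h (1.46, SE 0.31, adjusted p = 0.00220) and did not pass at 4 h (-0.15). SLC45A4, a proton-coupled carrier of the sucrose transporter family, rose at 4 h (1.02, adjusted p = 0.00325) and did not pass at 12 h (-0.19, adjusted p = 0.413). The falls at 12 h were in SLC2A9, a urate transporter (-2.23, SE 0.36, adjusted p = 0.000305), the inositol transporters SLC5A11 (-1.78, adjusted p = 0.000968) and SLC2A13 (-1.21, adjusted p = 0.000703), and SLC2A8 and SLC2A6, which are found on internal membranes (-0.59, adjusted p = 0.00364 and -0.54, adjusted p = 0.0245). The call of SLC2A6 was lost without cow6464, cow7367 or cow6314 (adjusted p = 0.0634, 0.0689 and 0.0755). SLC2A5, a fructose transporter, was split among cows. It was at 0, 0.11, 0 and 0.92 TPM in the controls, 0.06, 0, 0.73 and 0 at 4 h and 3.84, 4.97, 0.18 and 5.46 at 12 h. Cow7382 lay within the range of the controls while the other 12 h cows were above all controls. The gene had 31 counts over the controls, 28 of them in cow7514, and 323 at 12 h, a count rate 12.2 times that of controls (8.40 to 18.2). Its 12 h call by edgeR was lost with DESeq2 (4.03, adjusted p = 0.0568), and it met the count minimum only with the 12 h libraries.

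Metal and haem transporters did not pass the edgeR test at 4 h in any of 26 cases (2 had an unadjusted p below 0.05, and DESeq2 called 1 up and 0 down), while without cow6455 2 rose. At 12 h 2 rose and 11 fell (7.69% and 42.3%, against 23.6% and 25.3% of all genes), with 4 rises without cow6314, and a median log2 fold change of -0.23. SLC30A1 (chromosome 16, 71867070 to 71871370), which exports zinc across the plasma membrane, was at 25.5, 30.9, 31.0 and 32.8 TPM in the controls, 32.2, 32.9, 18.4 and 33.6 at 4 h and 7.10, 9.70, 10.3 and 7.53 at 12 h. The 12 h cows were below all controls, and at 4 h cow6455 alone was well below them (-1.49, SE 0.17, adjusted p = 3.60e-05 at 12 h and -0.02, adjusted p = 0.954 at 4 h). The zinc transporter SLC39A9 and the magnesium transporter SLC41A1 fell at 12 h (-1.09, adjusted p = 3.13e-05 and -0.93, adjusted p = 0.000913).

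The copper importer SLC31A1, at 139.7 ± 20.9 TPM in control cows, 158 ± 25.7 in 4 h cows and 75.3 ± 14.4 in 12 h cows (SD, n = 4 each), had a 12 h change of -0.55 (adjusted p = 0.0167) that was not called without cow7367, cow7514 or cow6314 (adjusted p = 0.0532, 0.0519 and 0.0585). That call was also lost with the transcript length offset (-0.41, adjusted p = 0.0650). The related SLC31A2 rose (1.15, SE 0.20, adjusted p = 0.000579), with all 12 h cows above the controls. SLC39A13, a zinc transporter of the secretory pathway, rose on counts (0.65, adjusted p = 0.00235) and was not called on log2(TPM + 1) (adjusted p = 0.193). SLC39A7, a zinc transporter of the endoplasmic reticulum, did not pass (0.01, adjusted p = 0.928). FLVCR1, a haem exporter known also as a choline carrier, fell at 12 h (-0.50, adjusted p = 0.0220). Summed TPM of the class was 953 ± 38.7 in control cows, 1062 ± 135 in 4 h cows and 728 ± 29.5 in 12 h cows (SD, n = 4 each).

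Many members of the SLC35 family carry nucleotide sugars into the Golgi apparatus and endoplasmic reticulum for glycosylation, though not every member is known to. The class holds the SLC35 genes whatever their substrate. Of its 22 genes, 2 rose and 3 fell at 4 h (9.09% and 13.6%, against 8.65% and 5.59% of all genes). At 12 h 4 rose and 8 fell (18.2% and 36.4%, against 23.6% and 25.3% of all genes). The 3 falls at 4 h numbered 0 to 4 with 1 cow left out, with 0 without cow7367 or cow5341 and 1 without cow4285, cow7514, cow4291 or cow6455. The rises at 4 h numbered 1 without cow4291, cow6455, cow5266 or cow7475. SLC35F5 (chromosome 2, 65335291 to 65377141), the most abundant, was at 214, 253, 276 and 219 TPM in the controls, 176, 199, 153 and 193 at 4 h and 72.4, 66.2, 96.6 and 90.2 at 12 h. The 4 h cows were below the controls in TPM without passing the edgeR test (-0.39, adjusted p = 0.135), and the 12 h cows were lower again (-1.25, SE 0.17, adjusted p = 9.82e-05).

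SLC35E2 fell at 12 h from 24.6 to 3.17 TPM (-2.65, SE 0.22, adjusted p = 6.67e-06), the transporter of xylose and N-acetylglucosamine nucleotides SLC35B4 fell from 3.20 to 0.535 TPM (-2.29, adjusted p = 9.25e-05), and SLC35D1, which carries glucuronic acid nucleotides, fell from 6.46 to 1.69 TPM (-1.63, adjusted p = 0.000126). SLC35B4 reached the count minimum in no 12 h library. SLC35A4 fell at both times (-0.41, adjusted p = 0.0305 at 4 h and -0.69, adjusted p = 0.000373 at 12 h). SLC35C1, the GDP-fucose transporter, and SLC35C2 were called lower at 4 h (-0.55 and -0.33, adjusted p = 0.0302 and 0.0252) and did not pass at 12 h. Each of the 4 h calls of SLC35A4, SLC35C1 and SLC35C2 was lost when cow5341 was left out. SLC35E4 rose at both times (1.31, adjusted p = 0.00735 at 4 h and 1.33, adjusted p = 0.00154 at 12 h), and SLC35D2 rose at 12 h (0.93, adjusted p = 0.000681). SLC35B1, next to SLC35F5 in level at 68.4 TPM in controls, had a 12 h log2 fold change of 0.18, adjusted p = 0.112. SLC35F1 had 3 counts over the controls, 61 at 4 h and 38 at 12 h, count rates 18.9 times (6.16 to 94.1) and 14.8 times (4.69 to 74.8) that of controls. Of its counts at 4 h, 35 were in cow6455. SLC35F1 reached the count minimum only in PGF2α cows. Its rise was not called by limma on log2(TPM + 1) at 4 h (0.35, adjusted p = 0.124) or at 12 h (0.24, adjusted p = 0.159). Summed TPM of the class was 701 ± 44.6 in control cows, 585 ± 45.6 in 4 h cows and 419 ± 28.6 in 12 h cows (SD, n = 4 each), with no overlap between the groups. SLC35F5 made up a large part of this sum. Without it the 4 h cows overlapped both other groups, and the 12 h cows stayed below all controls.

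Of 6 nucleoside and nucleobase transporters, 1 rose and 1 fell at 4 h and 3 rose and 1 fell at 12 h. The shares were 16.7% and 16.7% at 4 h and 50% and 16.7% at 12 h. Those of all genes were 8.65% and 5.59%, then 23.6% and 25.3%. Without cow7367, 2 rose at 4 h. SLC29A1 (chromosome 23, 17730856 to 17741105), which lets nucleosides such as adenosine cross the plasma membrane in both directions, was at 243, 242, 261 and 280.0 TPM in the controls, 345, 395, 337 and 338 at 4 h and 236, 213, 255 and 235 at 12 h. The 4 h cows were all above the controls (0.51, SE 0.12, adjusted p = 0.0125) and at 12 h the test did not pass (0.27, adjusted p = 0.0724). SLC29A2, its lower-affinity relative, fell at both times (-1.004, adjusted p = 0.000747 at 4 h and -0.91, SE 0.14, adjusted p = 0.000261 at 12 h). SLC28A2, a sodium-coupled purine nucleoside transporter, rose at 12 h to 1.07 TPM (2.60, adjusted p = 0.000822). It met the count minimum only with the 12 h libraries. SLC43A3, a purine nucleobase carrier, was called at 12 h (0.79, adjusted p = 0.0293), a call lost without cow4285, cow6464, cow7382 or cow7475, with only the 2 groups compared and on log2(TPM + 1).

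Among 10 transporters of neurotransmitters, taurine, creatine and choline, 2 rose and 0 fell at 4 h by edgeR (3 with an unadjusted p under 0.05, 0 down by DESeq2), and 1 rose and 2 fell at 12 h (2 and 4 by DESeq2). The edgeR shares were 20% and 0% at 4 h and 10% and 20% at 12 h. Those of all genes were 8.65% and 5.59%, then 23.6% and 25.3%. The rises at 12 h numbered 2 without cow7367, cow4291, cow5341, cow6456 or cow6314. SLC6A6, the taurine transporter, was at 43.1, 62.9, 29.7 and 46.4 TPM in the controls, 41.3, 23.1, 23.5 and 40.8 at 4 h and 8.11, 9.94, 12.6 and 14.5 at 12 h. Every 12 h cow was below every control (-1.71, SE 0.27, adjusted p = 0.000287). SLC6A8, the creatine transporter, was above all controls at 4 h (0.87, SE 0.18, adjusted p = 0.00715) and not called at 12 h (0.35, adjusted p = 0.120). The choline transporter SLC44A1 fell at 12 h (-1.07, adjusted p = 0.000705), and its relative SLC44A2, at 88.6 TPM in controls, did not pass at 12 h (-0.28, adjusted p = 0.0510). SLC17A9, which loads ATP into vesicles, rose at 12 h (1.31, adjusted p = 0.00248).

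Of 12 transporters of organic ions, bile acids and thyroid hormone, 0 were called at 4 h by edgeR (4 with an unadjusted p under 0.05, 1 up and 0 down by DESeq2), and 3 rose and 1 fell at 12 h. The 12 h shares were 25% and 8.33%, against 23.6% and 25.3% of all genes. Without cow7475, 1 rose at 12 h, without cow7514 or cow6455, 2 fell at 12 h, and without cow4285 or cow6464, 1 rose at 4 h. SLC17A5, the lysosomal sialic acid exporter, rose at 12 h (1.09, adjusted p = 0.0227) but lost its call without cow5266 or cow7475 (adjusted p = 0.0573 and 0.0694). The carnitine transporter SLC22A16 rose from 0.390 to 1.16 TPM (1.83, adjusted p = 0.00167) and SLC10A7 fell (-1.23, adjusted p = 0.000125). Only with the 12 h libraries did SLC22A16 meet the count minimum. SLC22A17, a receptor-like member at 44.2 TPM in controls, did not pass (0.24, adjusted p = 0.187).

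Of 3 genes whose substrate is unclear, SLC66A3 rose at 12 h (0.93, adjusted p = 0.000642) and SLC66A2 at 4 h (0.64, adjusted p = 0.00118), and SLC66A2 was also called at 12 h (0.33, adjusted p = 0.0150), a call lost without cow5266 and on log2(TPM + 1). Without cow6464, 2 of the 3 rose at 4 h. Of 2 fatty acid transport proteins that remained in the set, SLC27A6 fell at 12 h (-2.88, adjusted p = 0.0110) from 154 counts over the controls to 15 at 12 h, 12 of which were in cow5266, and SLC27A5 did not pass (-0.29, adjusted p = 0.491). Outside the classes, SLC7A6OS was called at 12 h on counts (0.33, adjusted p = 0.00745) and not on log2(TPM + 1) (adjusted p = 0.872). The urea transporter SLC14A1 did not pass (0.81, adjusted p = 0.206).

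**Figure D4:**
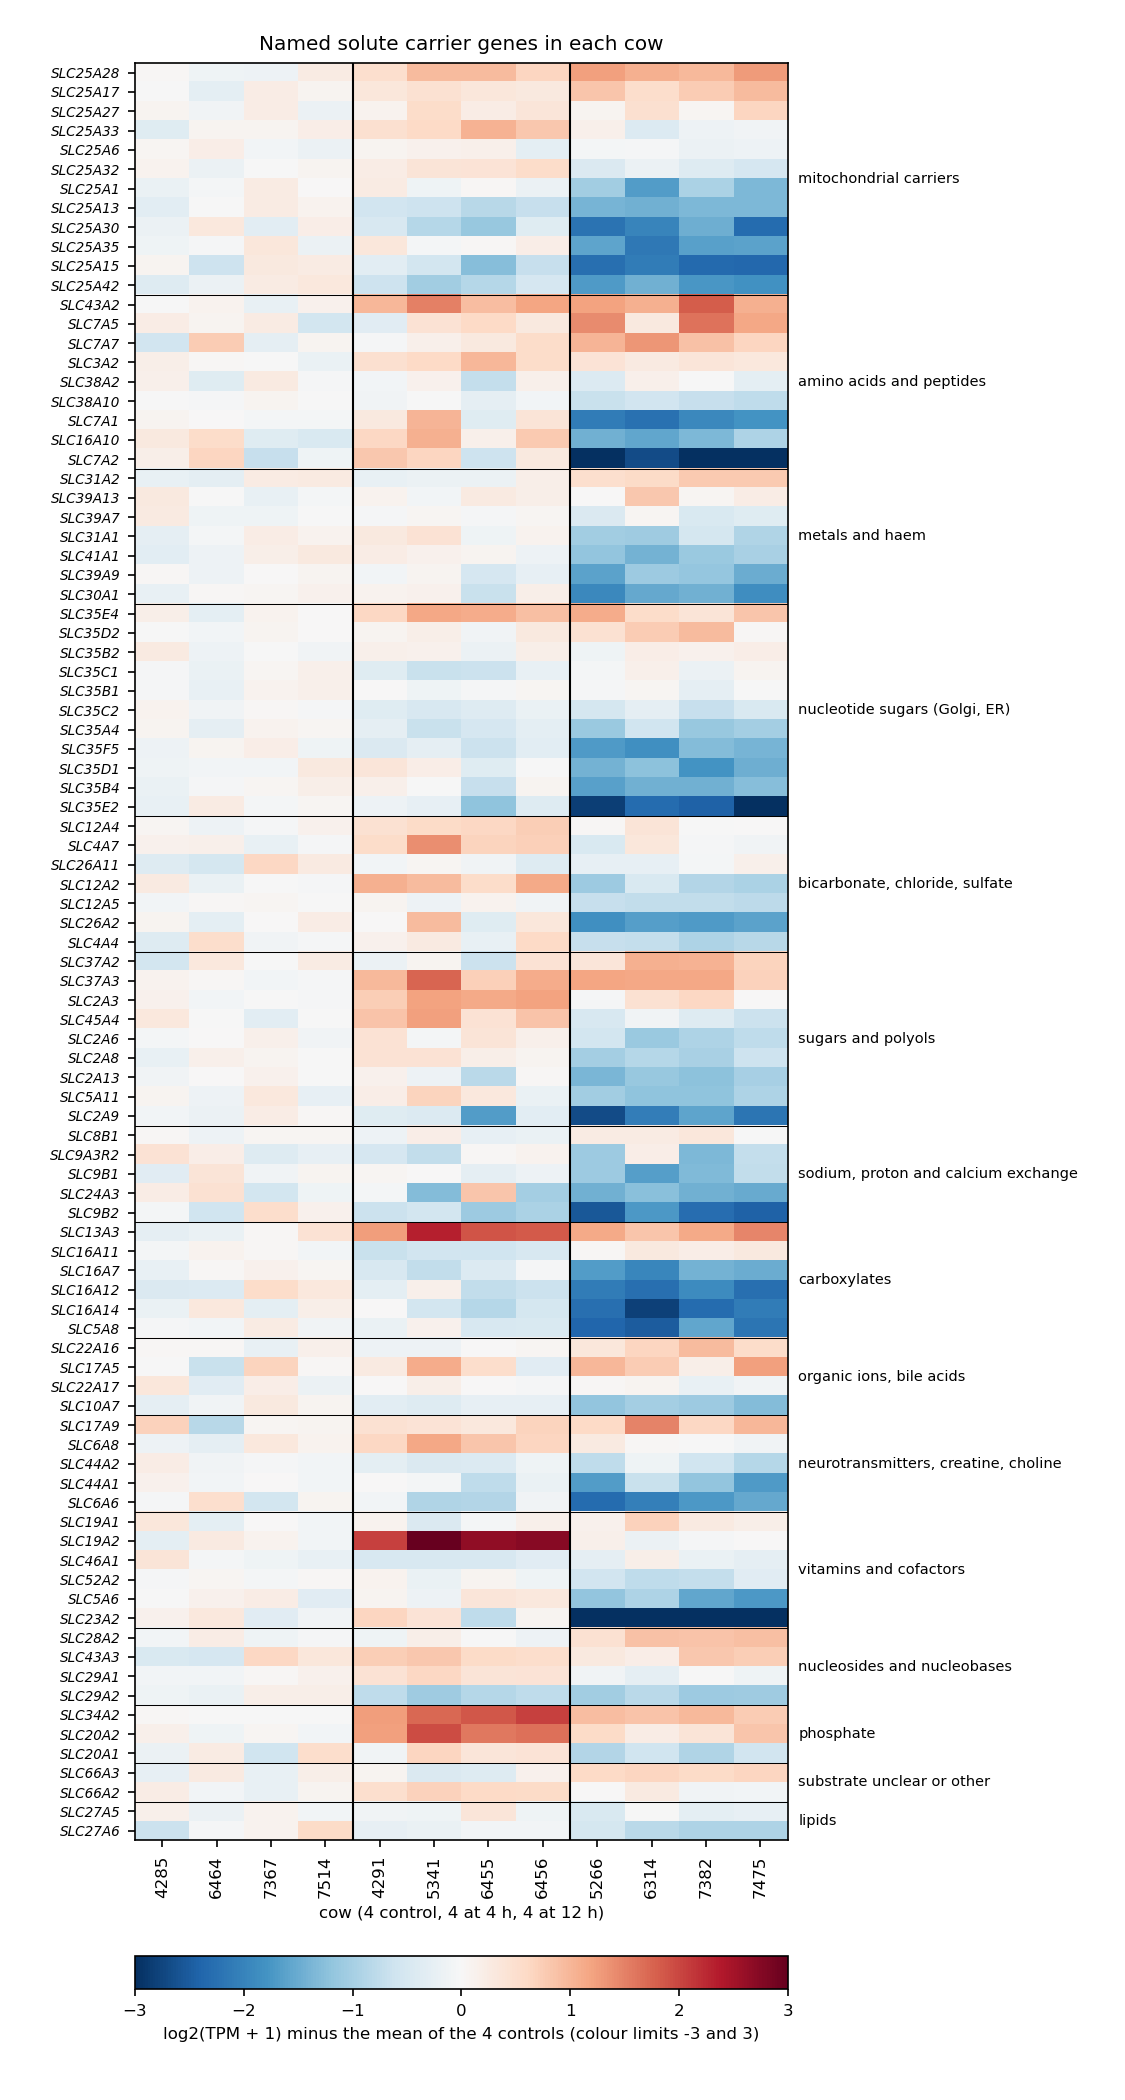
Named solute carrier genes (rows, grouped by substrate class) in each of the 12 cows (columns), as log2(TPM + 1) minus the mean of the 4 controls, with colour limits at -3 and 3. SLC23A2 and SLC7A2 are the darkest blue rows at 12 h and SLC19A2 the darkest red row at 4 h, and cows of 1 group share their colours in most rows.

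Direct comparison of the 2 PGF2α groups set the 12 h values against those at 4 h. Of the members that met the naming rule for this comparison, those lowest at 12 h relative to 4 h were SLC7A2 (-3.68, adjusted p = 1.79e-05), SLC23A2 (-3.59, adjusted p = 1.13e-05), SLC16A10 (-3.16, adjusted p = 0.000258), SLC19A2 (-2.68, adjusted p = 1.61e-05) and SLC4A4 (-2.62, adjusted p = 0.000773). For SLC19A2 the 12 h level was that of the controls, and for the other 4 it was below them. Those highest at 12 h relative to 4 h were SLC28A2 (2.75, adjusted p = 0.000669), SLC22A16 (2.13, adjusted p = 0.000795), SLC37A2 (1.61, adjusted p = 0.00137), SLC16A11 (1.21, adjusted p = 5.72e-05) and SLC31A2 (1.14, adjusted p = 0.000702). In SLC28A2, SLC22A16, SLC37A2 and SLC31A2 the 4 h value did not pass against control, and SLC16A11 had fallen at 4 h. The rises of SLC28A2 and SLC22A16 are not independent of the count minimum, which they met only with the 12 h libraries.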

How the data were processed

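RNA of whole corpora lutea from 12 cows was sequenced, with 1 table per cow. The authors deposited RSEM output per gene: expected counts (estimated counts, rounded here), TPM, and FPKM, which was not used. Per the submitters' processing notes, reads were aligned with STAR 2.5 to ARS-UCD1.2 and quantified with RSEM 1.3. The library kit and the use of strand are not given in the sources used here, so overlapping genes and close paralogs may share reads. No pair of libraries was identical, and nothing beyond the cow tags describes the replicates.

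Genes that reached 10 counts in 4 or more of the 12 libraries were fitted with edgeR 4.0.16 (TMM scaling, quasi-likelihood test, all 3 groups in 1 fit, Benjamini-Hochberg adjustment). DESeq2 1.42.0, limma 3.58.1 on log2(TPM + 1) and log2(TPM + 0.1), RLE scaling, no minimum, a minimum of 50, only the groups compared, no mitochondrially encoded genes, a transcript length offset (spline, 5 degrees of freedom), each cow left out, and cow6455 and cow6314 left out together were the alternatives. The fits were tested on simulated data (R 4.3.3). Summaries and figures were made with Python 3.11.15, pandas 2.3.3, numpy 2.4.6 and matplotlib 3.10.9. Count-rate intervals are exact 95% intervals for counting error only. The groups have 4 cows each, which limits the precision of every SD.

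The members, substrate classes, partner and marker lists were chosen with earlier results of these data known. In each class the text names the 2 most abundant genes in controls and, at each time, up to 3 rises and 3 falls of largest log2 fold change among called genes with a group mean of at least 1 TPM and no overlap between groups in TMM-scaled CPM, plus the 5 largest of each direction for 12 h with 4 h, and partners. Some genes that this rule names are not reported here. SLC17A2, SLC35F1, SLC2A5, SLC25A3, SLC16A1 and SLC1A4 fall outside this rule and were named after their values were seen. Gene positions are those in the deposited tables.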

Additional observations from a re-analysis of the deposited data

Results flagged for a closer look

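In 23 of 303 groups of 4 cows tested among the named genes, 1 cow's TPM lay far from the other 3 (Dixon's ratio above its 95% critical value). Chance sets 1 cow apart in about 1 in 20 groups.

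In controls, cow6464 was low for SLC35A4 (34.35 TPM, others 43.18 to 44.65) and SLC8B1 (5.64, others 6.59 to 6.75), cow7514 was high for SLC35D1 (8.12, others 5.78 to 5.98) and SLC2A5 (0.92, others 0 to 0.11) and cow4285 was high for SLC44A2 (102.66, others 82.65 to 86.02).

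At 4 h, cow6455 was high for SLC27A5 (1.43 TPM, others 0.72 to 0.76), SLC2A5 (0.73, others 0 to 0.06) and SLC35F1 (0.73, others 0.13 to 0.23) and low for SLC2A9 (3.13, others 8.94 to 9.68) and SLC30A1 (18.38, others 32.2 to 33.65). Cow5341 was high for SLC29A1 (395.49, others 337.25 to 344.63) and SLC4A7 (16.27, others 8.69 to 9.74). Cow4291 was low for SLC2A3 (18.74, others 25.16 to 26.31), and cow6456 was high for SLC31A2 (32.31, others 24.21 to 25.43) and SLC46A1 (4.32, others 3.79 to 3.82).

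At 12 h, cow6314 was high for SLC12A4 (56.79 TPM, others 42.94 to 44.42), SLC29A2 (3.85, others 2.96 to 3.11), SLC39A7 (110.34, others 76.97 to 81.06) and SLC46A1 (6.56, others 4.55 to 4.87) and low for SLC25A35 (2.76, others 4.41 to 4.51). Cow5266 was low for SLC28A2 (0.65, others 1.17 to 1.25), cow7475 was low for SLC37A3 (29.35, others 41.12 to 41.93) and cow7382 was high for SLC43A2 (138.98, others 82.46 to 90.89).

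The changes at 12 h and at 4 h differed by the direct edgeR test for 34 genes with the greater value at 12 h and 89 with the smaller.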

How the results depend on the processing

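No member whose log2 fold change was recomputed (those named by the rule and the 6 named outside it) changed direction past the threshold under any alternative run. The number that fell at 4 h, 13, was 8 with no count minimum, 6 with only the 2 groups compared, 8 and 6 by limma on log2(TPM + 1) and log2(TPM + 0.1), and 6 without cow6455 and cow6314 together. The number that rose at 12 h, 50, was 27 and 29 by limma on log2(TPM + 1) and log2(TPM + 0.1), where the median of all genes was -0.25 and -0.30. The number higher at 12 h than at 4 h, 34, was 16 and 15 on those scales. With any 1 cow left out, 22 to 28 rose and 3 to 12 fell at 4 h, 42 to 54 rose and 70 to 82 fell at 12 h (84 fell without cow6455 and cow6314 together), and 26 to 37 were higher and 77 to 86 lower at 12 h than at 4 h. RLE scaling, DESeq2, a minimum of 50 counts, leaving out mitochondrially encoded genes and the transcript length offset kept these 6 counts within 1.5 times. Of 303 values of these genes, 294 kept their side of the threshold with DESeq2 and 260 on log2(TPM + 1), where 29 were no longer called. The cause was not tested. No paired analysis was possible because each cow tag occurs in 1 group. Genes with few counts, such as SLC17A2 and SLC35F1, are limited by depth.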
